A study of Homo sapiens with 16 samples.

Results

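Metallothioneins are small proteins rich in cysteine that bind zinc, copper and cadmium in the cytosol. The 6 genes described here are MT1E, MT1F, MT1G, MT1X and MT2A, which encode metallothioneins, and MTF1, which encodes the zinc-sensing transcription factor that drives them. They were taken by symbol from a table of 33121 gene entries, and each symbol had 1 entry. Of the 6, 5 passed the filter on low counts and MT1G did not, against 15569 entries of the table that passed.

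RNA was sequenced from 16 libraries of HAP1, a near-haploid human line derived from a chronic myeloid leukaemia line, with 4 libraries in each of 4 groups. In the first experiment, SLC30A10, a metal exporter of the zinc transporter family known for exporting manganese, was deleted, and SLC30A10+/+ cells were its controls. In the other experiment a further gene was deleted (the second knockout), with wild-type cells beside it (the second control set). Both control sets carry 1 shared cell line identifier and each deletion its own, with no number of clones given. All 4 groups share the same medium with serum, and the labels name no added metal and no treatment time. Nothing states that replicates are separate cultures, so p-values measure only the spread between these libraries.

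MTF1 has zinc finger domains that bind zinc, and in zinc-loaded form it moves to the nucleus and binds short promoter motifs called metal response elements. Metallothionein mRNA is for that reason widely used as a readout of free zinc or cadmium in cells. Other textbook MTF1 targets include SLC30A1, the zinc exporter of the plasma membrane. The activity of MTF1 is set mainly by zinc binding, which an mRNA level does not measure.

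The metallothionein genes lie side by side on the long arm of chromosome 16. In GRCh38.p14 coordinates from RefSeq, MT2A spans chr16:56608584-56609497, MT1E chr16:56625781-56627112, MT1F chr16:56657959-56659303 and MT1X chr16:56682470-56684196, all on the plus strand. MT1G spans chr16:56666730-56668065 on the minus strand, between MT1F and MT1X. MTF1 lies apart at chr1:37809574-37859592 on the minus strand. Each of the 5 metallothionein coding sequences has 186 bases with its stop codon and 61 codons before it, of which 20 (32.8%) are cysteine codons. MTF1 has 753 codons, of which 21 (2.79%) are cysteine codons.

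The coding sequences of MT1E, MT2A and MT1F are shown, since the first changed most in the counts, the second is its nearest rival in level, and the third did not pass the test in any comparison. They are read 5′ to 3′ from the GENCODE v29 transcripts, with cysteine codons in capitals.
MT1E: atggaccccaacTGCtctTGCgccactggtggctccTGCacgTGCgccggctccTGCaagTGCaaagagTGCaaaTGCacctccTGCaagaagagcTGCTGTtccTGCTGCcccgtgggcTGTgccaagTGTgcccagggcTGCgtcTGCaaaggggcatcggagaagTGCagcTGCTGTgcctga
MT2A: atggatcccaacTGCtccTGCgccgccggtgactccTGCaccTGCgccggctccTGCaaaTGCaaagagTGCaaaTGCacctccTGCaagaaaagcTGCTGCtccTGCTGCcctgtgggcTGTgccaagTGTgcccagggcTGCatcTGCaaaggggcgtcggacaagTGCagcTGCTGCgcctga
MT1F: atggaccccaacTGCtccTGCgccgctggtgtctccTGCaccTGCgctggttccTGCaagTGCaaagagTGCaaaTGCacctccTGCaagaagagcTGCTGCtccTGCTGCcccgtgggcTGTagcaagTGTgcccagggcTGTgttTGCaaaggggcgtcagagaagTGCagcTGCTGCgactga
The cysteine codons stand at the same places in these 3 sequences, and in MT1G and MT1X too. MT1E and MT2A differed at 14 of 186 coding positions (92.5% identity), and over the 5 metallothioneins identity ran from 88.7% for MT1F with MT1X to 95.2% for MT1G with MT2A.

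Such likeness bears on how reads of 100 bases can be assigned. No window of 100 bases in the mature MT1E, MT1F, MT1G or MT2A transcript was shared exactly with another gene's transcript. In MT1X, 67 of 305 windows (22%) were shared, all with AC026461.1, an annotated transcript over the same locus that has no entry in the count table. Allowing 3 mismatches, 33.1% of MT1E windows matched another metallothionein gene or pseudogene. The share was 18.9% in MT2A, 18.6% in MT1G, 13.4% in MT1X and 0 in MT1F. Which gene or pseudogene was matched was not recorded. How reads with several matches were counted is not given in the sources used here. The counts of MT1E, MT2A, MT1G and MT1X thus carry an uncertainty that was not measured.

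Promoter windows of MT2A, MT1X and MTF1 could be matched in RefSeq. The window ran over 250 bases before the annotated start, and it was searched on both strands for the core of a metal response element, written TGCACNC or TGCGCNC. The windows of MT2A (chr16:56608334-56608583) and MT1X (chr16:56682220-56682469), both plus strand in GRCh38.p14, are shown because their genes were both called in the SLC30A10 knockout. Capitals mark matches on either strand, and no matches overlapped.
MT2A: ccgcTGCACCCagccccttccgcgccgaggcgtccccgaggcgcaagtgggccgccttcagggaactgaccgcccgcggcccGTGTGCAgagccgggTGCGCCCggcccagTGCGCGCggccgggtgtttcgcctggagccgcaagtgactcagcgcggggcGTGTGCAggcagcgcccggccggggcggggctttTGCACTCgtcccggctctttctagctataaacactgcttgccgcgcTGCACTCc
MT1X: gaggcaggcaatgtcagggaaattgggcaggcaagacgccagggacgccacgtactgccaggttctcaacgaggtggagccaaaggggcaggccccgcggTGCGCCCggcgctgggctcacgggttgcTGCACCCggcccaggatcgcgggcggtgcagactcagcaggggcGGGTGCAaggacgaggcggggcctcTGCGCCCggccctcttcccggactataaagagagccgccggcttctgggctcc
MT2A held 7 matches and MT1X 4. Among all RefSeq promoter windows of this length, 24.8% held at least 1 match, 0.370% held at least 4 and 0.0313% at least 7. No match was found in the MTF1 window. These are matches to letters, not measured binding sites.

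Library totals ran from 16058856 to 16648151 counts, at which 3 counts equal 0.180 to 0.187 CPM, where CPM is counts per 1000000 of the scaled library size. SLC30A10 itself was at 0.472 ± 0.0774 CPM in its controls and 0.418 ± 0.217 CPM in the knockout (SD, n = 4), 3 to 11 counts, so its mRNA level did not check the labelled deletion at this depth. BCR and ABL1, the genes of the fusion carried by HAP1, were at 19.8 to 24.3 CPM and 12.6 to 20.6 CPM per library, while the blood cell markers PTPRC, CD33 and CD34 had at most 9 counts in any library. Replicate 3 of the SLC30A10 controls stood apart from the others of its group, for the genes described here and more widely. The members' results that rest on it are given with and without it.

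MT1E and MT2A were the abundant metallothioneins of these cells. Per kilobase of mature transcript, the scale on which levels of different genes can be compared, MT1E was at 298 ± 47.1 CPM per kb in the SLC30A10 controls and MT2A at 262 ± 44.1 (SD, n = 4). The ranges of the 2 genes overlapped across these libraries. Within each SLC30A10 control library MT1E read above MT2A, at a ratio of 1.07 to 1.17 in CPM. MT1X followed at 46.2 ± 8.44 CPM per kb and MT1F at 21.5 ± 2.21, and neither range met that of its neighbour above. MTF1 was at 3.47 ± 0.149 CPM per kb. In the second control set the order of the means was the same, with MT1E at 212 ± 11.9 CPM per kb and MT2A at 200 ± 6.08. The within-library ratio of these genes in CPM ran from 0.980 to 1.15 there. MT1X was at 36.1 ± 1.94, MT1F at 20.6 ± 2.00 and MTF1 at 3.02 ± 0.152 CPM per kb. MT2A stood above MT1E in mean in both knockouts, at 202 ± 11 against 189 ± 6.62 CPM per kb after SLC30A10 deletion and at 178 ± 17.8 against 173 ± 14.3 in the second knockout, with overlapping libraries in each.

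MT1G was near silence. It had 0, 1, 2 and 0 counts in SLC30A10 control replicates 1 to 4, 0 in every SLC30A10 knockout and second control library, and 0, 1, 0 and 0 in the second knockout. A count of 0 allows a level of up to 0.180 to 0.187 CPM, counting error only. A two-sided exact permutation test on log2(CPM + 0.5) gave p = 0.429 for the SLC30A10 comparison and p = 1 for the second, where the smallest p that 4 against 4 libraries can give is 0.0286.

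**Figure D1:**
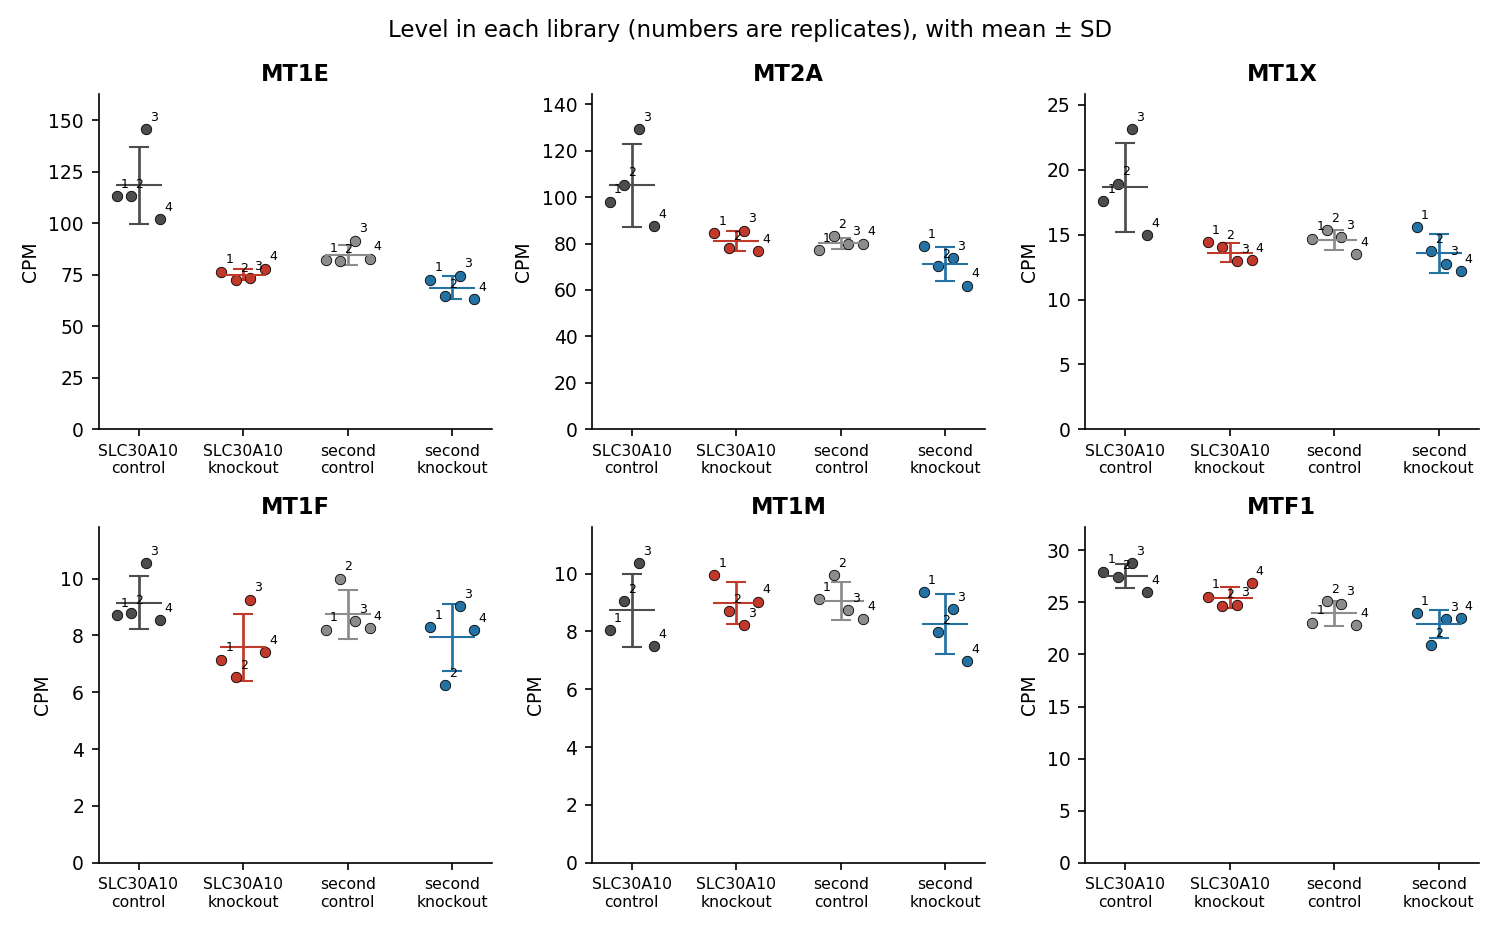
Each panel plots CPM (vertical axis, from 0) in the 4 libraries of each group for MT1E, MT2A, MT1X, MT1F, MT1M and MTF1, with points numbered by replicate and bars for mean ± SD. Replicate 3 of the SLC30A10 controls is the highest library in all 6 panels, and the MT1E libraries of the SLC30A10 knockout all lie below both control sets.

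In the SLC30A10 knockout, the metallothionein mRNAs that were most abundant were lower than in the knockout's own controls. MT1E, MT2A and MT1X fell, by 36.7%, 22.7% and 27%, while MT1F and MTF1 did not pass the test. That is 3 of 5 tested members called, all lower, where 41.4% of all tested genes were called and 20.2% were called lower at an adjusted p under 0.05 (edgeR quasi-likelihood test, Benjamini-Hochberg over all 15569 genes). The members' median log2 fold change was -0.37, against 0.00 for all tested genes. In bulk RNA, fewer cells with a transcript and less of it per cell cannot be told apart.

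MT1E, a metallothionein of the large MT1 group, read 113, 113, 146 and 102 CPM in SLC30A10 control replicates 1 to 4, and 76.4, 72.5, 73.2 and 78.0 CPM in the knockout. All knockout libraries lay below all control libraries. The means were 118.5 ± 18.8 and 75.0 ± 2.63 CPM (SD, n = 4), and the log2 fold change was -0.66 ± 0.07 (SE; 95% interval -0.81 to -0.51), with an adjusted p of 5.24e-08 by edgeR's quasi-likelihood test.

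MT2A, the member usually most abundant in human cells, read 98.1, 105, 129 and 87.5 CPM in the controls and 84.4, 77.9, 85.5 and 76.8 CPM in the knockout. The groups did not overlap, though control replicate 4 lay close to the highest knockout library. The log2 fold change was -0.37 ± 0.08 (adjusted p = 0.000426, edgeR).

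MT1X, expressed at a lower level, read 17.6, 18.9, 23.1 and 14.9 CPM in the controls and 14.4, 14, 12.9 and 13 CPM in the knockout. Again no knockout library reached the lowest control. Its log2 fold change was -0.45 ± 0.10 (adjusted p = 0.000581, edgeR). Groups that do not overlap and are lower in the knockout were found for 18.6% of all tested genes.

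MT1F, another MT1 gene, read 8.71, 8.80, 10.5 and 8.54 CPM in the controls and 7.15, 6.53, 9.26 and 7.41 CPM in the knockout. Knockout replicate 3 lay inside the control range, and the other 3 lay below it. The log2 fold change of -0.27 ± 0.12 missed the threshold (adjusted p = 0.0680, edgeR) and passed it without knockout replicate 3, at -0.38 (adjusted p = 0.0149).

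MTF1, the regulator, read 28, 27.4, 28.8 and 26.0 CPM in the controls and 25.5, 24.6, 24.8 and 26.8 CPM in the knockout. Knockout replicate 4 exceeded control replicate 4, and the means were 27.5 ± 1.18 and 25.4 ± 1.02 CPM (SD, n = 4). The log2 fold change was -0.11 ± 0.06 (adjusted p = 0.134, edgeR).

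Control replicate 3 carried part of the size of these differences. Relative to the mean of the other 3 SLC30A10 controls it read 1.33 times as high in MT1E, 1.33 in MT2A, 1.35 in MT1X and 1.22 in MT1F, against 1.06 in MTF1 and a median of 0.994 over all tested genes. A ratio of at least 1.2 was met by 6.52% of tested genes, and 33.9% of tested genes were highest in this library. Within its own group it stood apart over genes at large too. The chi-square of counts per degree of freedom was 4.11 to 6.77 between it and each other SLC30A10 control. Among those other controls it was 1.76 to 2.01. Wide values were also found in the second experiment, at 2.89 to 6.83 between second knockout libraries and 1.695 to 5.32 between second controls. The heat shock chaperone gene HSPA8 read 1.29 times as high in SLC30A10 control replicate 3 and the zinc exporter gene SLC30A1 1.29 times. Without that library MT1E fell by 0.55 on the log2 scale, MT2A by 0.26 and MT1X by 0.34, with adjusted p-values of 1.5e-08, 0.00227 and 0.00392 (edgeR), so all 3 calls were kept at smaller sizes. MT1F was then at -0.19 (adjusted p = 0.219).

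**Figure D2:**
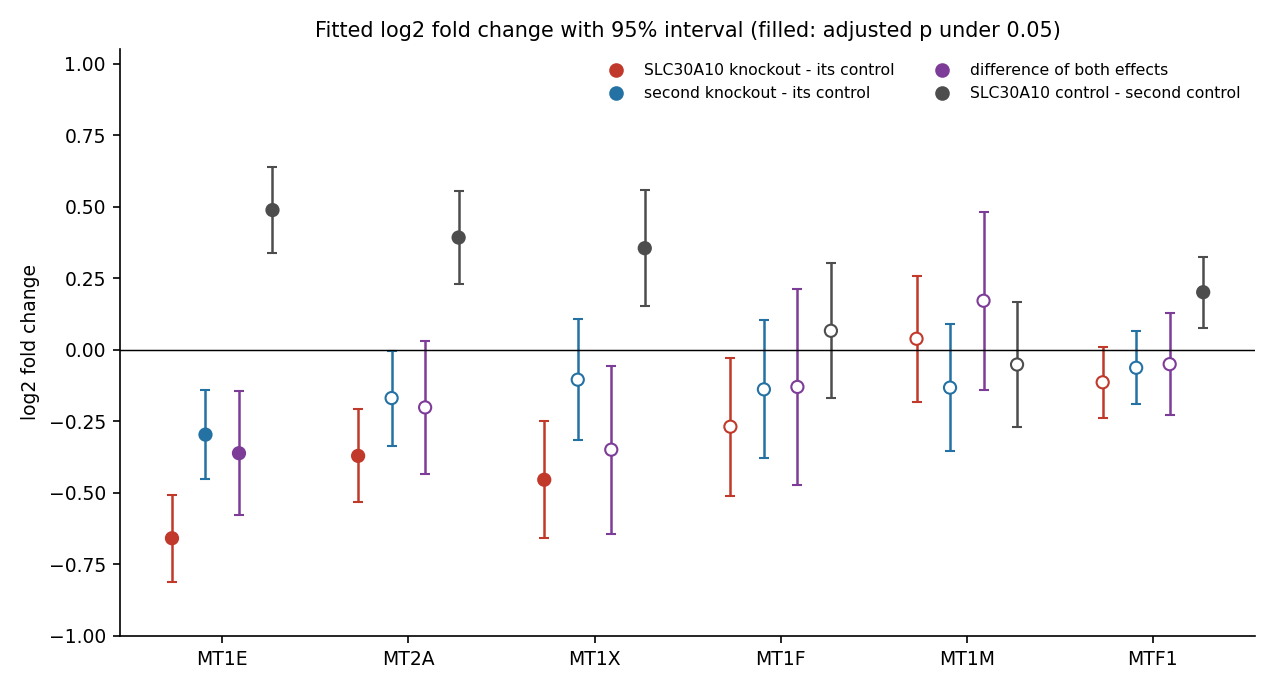
Points give fitted log2 fold changes (vertical axis) with 95% intervals for 6 genes in 4 contrasts, filled where the adjusted p was under 0.05. MT1E is filled in all 4 contrasts, at -0.66, -0.30, -0.36 and 0.49, and MT1F and MT1M are filled in none.

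In the second knockout, MT1E was the member that fell, by 18.6%. It was 1 of 5 tested members called, where 13.7% of all tested genes were called and 7.03% called lower (edgeR, Benjamini-Hochberg). MT1E read 82.1, 81.5, 91.5 and 82.9 CPM in the second control set and 72.7, 64.8, 74.6 and 63.1 CPM in the second knockout, with no overlap, as was found for 8.69% of tested genes in this direction. Its log2 fold change was -0.30 ± 0.08 (adjusted p = 0.00774, edgeR). With each library left out in turn it ran from -0.34 to -0.25, with adjusted p from 0.000235 to 0.0465 (edgeR). Genes called lower in both knockouts, each against its own controls, made up 2.1% of those tested, and MT1E was among them.

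The other members moved less in the second knockout. MT2A read 77.2, 83.2, 79.9 and 79.9 CPM in the second control set and 78.9, 70.3, 73.8 and 61.9 CPM in the knockout, where knockout replicate 1 lay inside the control range. Its log2 fold change was -0.17 ± 0.08 (adjusted p = 0.181, edgeR). MT1X was at 14.6 ± 0.783 and 13.6 ± 1.49 CPM (log2 fold change -0.11 ± 0.10), MT1F at 8.74 ± 0.851 and 7.94 ± 1.18 CPM (-0.14 ± 0.12) and MTF1 at 24.0 ± 1.2 and 22.9 ± 1.37 CPM (-0.06 ± 0.06). The adjusted p-values of these 3 genes were 0.566, 0.494 and 0.566 by edgeR. All 3 pairs of groups overlapped.

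The fall of MT1E, with each knockout set against its own controls, differed between the knockouts. Its means were 118.5 and 75.0 CPM in the SLC30A10 controls and knockout, and 84.5 and 68.8 CPM in the second controls and knockout. The control means thus lay further apart than the knockout means, and the SLC30A10 knockout read the higher of the knockouts. The difference of the effects was -0.36 ± 0.11 on the log2 scale, with the larger fall in the SLC30A10 knockout (adjusted p = 0.00985, edgeR). MT1E was 1 of 5 tested members called there, against 31.3% of all tested genes. Without SLC30A10 control replicate 3 the difference was -0.25 (adjusted p = 0.0151, edgeR). For MT2A the difference was -0.20 ± 0.11 (adjusted p = 0.183), for MT1X -0.35 ± 0.14 (0.0640), for MT1F -0.13 ± 0.17 (0.591) and for MTF1 -0.05 ± 0.09 (0.695), so a different response of these 4 genes was not shown. MT1X and MT2A passed without SLC30A10 control replicate 4, at -0.45 (adjusted p = 0.0091) and -0.29 (0.0327), and MT1X without second knockout replicate 4, at -0.41 (0.0354).

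The control sets, though of 1 cell line identifier, also differed in metallothionein mRNA. MT1E, MT2A, MT1X and MTF1 were higher in the SLC30A10 controls than in the second control set, 4 of 5 tested members, where 39.3% of all tested genes were called and 18.5% called higher. The log2 differences were 0.49 ± 0.07 for MT1E (adjusted p = 1.16e-05), 0.39 ± 0.08 for MT2A (0.000329), 0.35 ± 0.10 for MT1X (0.00555) and 0.20 ± 0.06 for MTF1 (0.0102), all by edgeR. MT1F was at 0.07 ± 0.11 (adjusted p = 0.682). The libraries of the control sets did not overlap for MT1E, MT2A and MTF1 (17.4% of tested genes in this direction), and they overlapped for MT1X, where SLC30A10 control replicate 4 read 14.9 CPM and second control replicate 2 read 15.3. Without SLC30A10 control replicate 3, the differences were 0.38 for MT1E, 0.28 for MT2A, 0.24 for MT1X and 0.19 for MTF1, and all 4 stayed past the threshold (adjusted p 1.23e-05 to 0.0372, edgeR).

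This difference is in the same SLC30A10 control libraries that serve the knockout comparison, so both sets of values share them. Side by side, MT1E was at -0.66 in the SLC30A10 knockout and 0.49 between control sets, MT2A at -0.37 and 0.39, and MT1X at -0.45 and 0.35. Set against the second control libraries in place of its own, the SLC30A10 knockout had 0 of 5 members called at an adjusted p under 0.05, where 44.3% of all tested genes were called. MT1E was then at -0.17 ± 0.08 (adjusted p = 0.0663), MT1X at -0.10 (0.454), MT1F at -0.20 (0.168), MT2A at 0.02 (0.861) and MTF1 at 0.09 (0.265) by edgeR. DESeq2 also called 0 of the 5. The unadjusted edgeR p was under 0.05 for 1 of them, MT1E, whose knockout libraries all lay below the second control libraries as well. Against both control sets pooled, MT1E alone was called, at -0.44 ± 0.12 (adjusted p = 0.00966, edgeR), with 32.1% of all genes called.

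Exchanging the controls moved the second knockout the other way. Against the SLC30A10 controls, 4 of 5 members were called lower, where 47.8% of all tested genes were called: MT1E at -0.78, MT2A at -0.56, MT1X at -0.46 and MTF1 at -0.26 (adjusted p 3.75e-09 to 0.00087, edgeR). With both control sets pooled, MT1E and MT2A were called, at -0.56 and -0.38, where 19% of all genes were called. MT1E was the one member called for both knockouts against both own and pooled controls. Date, culture and cell stock cannot be told apart from the experiment, since the labels give none of them for the control sets.

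**Figure D3:**
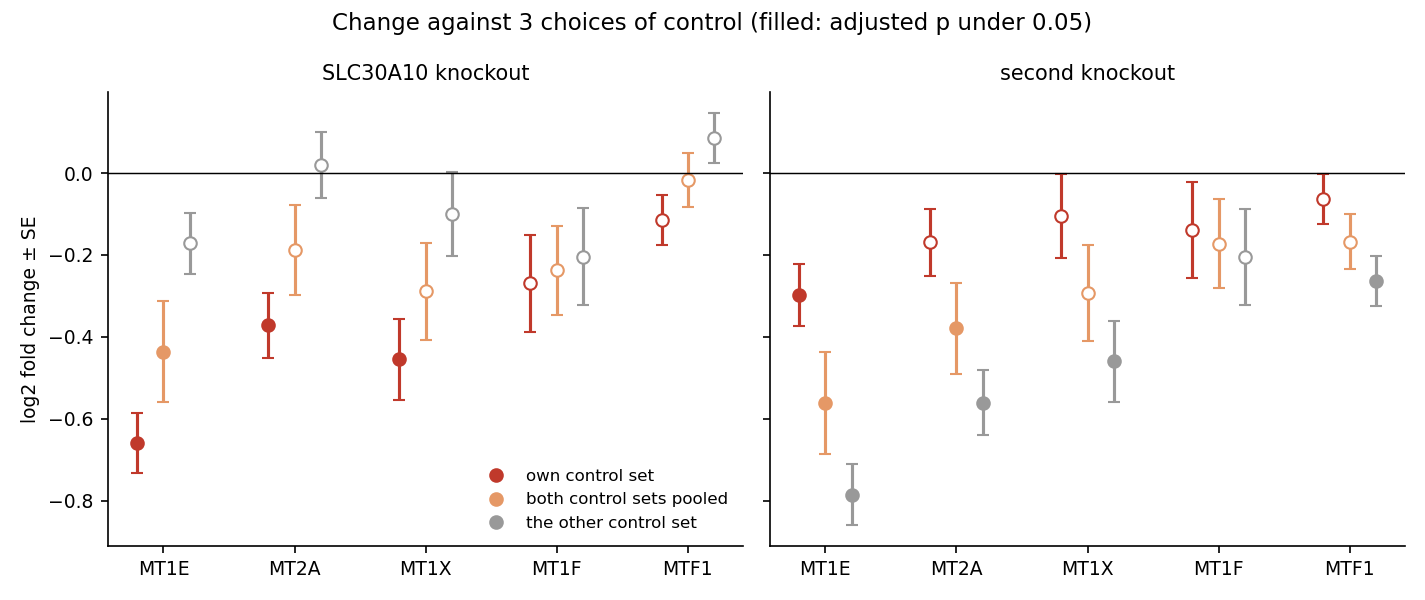
Each panel shows 1 knockout, with the log2 fold change ± SE (vertical axis) of 5 genes against its own control set, both sets pooled and the other set, filled where the adjusted p was under 0.05. For the SLC30A10 knockout MT2A moves from -0.37 to 0.02 as the control changes, and for the second knockout MTF1 moves from -0.06 to -0.26.

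Summing MT1E, MT1F, MT1G, MT1X, MT2A and MT1M, the other tested metallothionein, gives the metallothionein mRNA of a library. The sum was 260 ± 41.8 CPM in the SLC30A10 controls, with libraries from 221 to 319 CPM, and 186 ± 5.56 CPM in the SLC30A10 knockout, with libraries from 179.7 to 192 CPM. In the second experiment it was 197 ± 5.77 CPM in the controls (191 to 204 CPM) and 169.8 ± 14.8 CPM in the knockout (152 to 185 CPM). Neither knockout overlapped its own controls, as was found in this direction for 18.6% and 8.69% of single tested genes. The SLC30A10 knockout did overlap the second control set. Replicate 3 held the highest sum of the SLC30A10 controls, and the next was 255 CPM in replicate 2. The SD in the SLC30A10 controls was the widest of the 4 groups.

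The makeup of that sum shifted as well as its size, which is given as a description. MT1E made up 45.6 ± 0.895% of it in the SLC30A10 controls and 40.3 ± 1.53% in the SLC30A10 knockout, against 42.9 ± 1.72% and 40.5 ± 1.19% in the second controls and second knockout (SD, n = 4). The ratio of MT1E to MT2A, taken within each library and so free of library scaling, was 1.13 ± 0.0415 in the SLC30A10 controls, from 1.07 to 1.17, and 0.927 ± 0.0667 in the knockout, from 0.856 to 1.02. The libraries of these groups did not overlap. How often ratios of other gene pairs separate in this way was not computed. The SLC30A10 knockout did overlap the second control set, where the ratio ran from 0.980 to 1.15. In the second experiment the ratio was 1.06 ± 0.0687 and 0.969 ± 0.0543, with overlap. Within the SLC30A10 controls, replicate 3 had the highest sum, while the MT1E share spanned 44.3 to 46.3%.

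**Figure D4:**
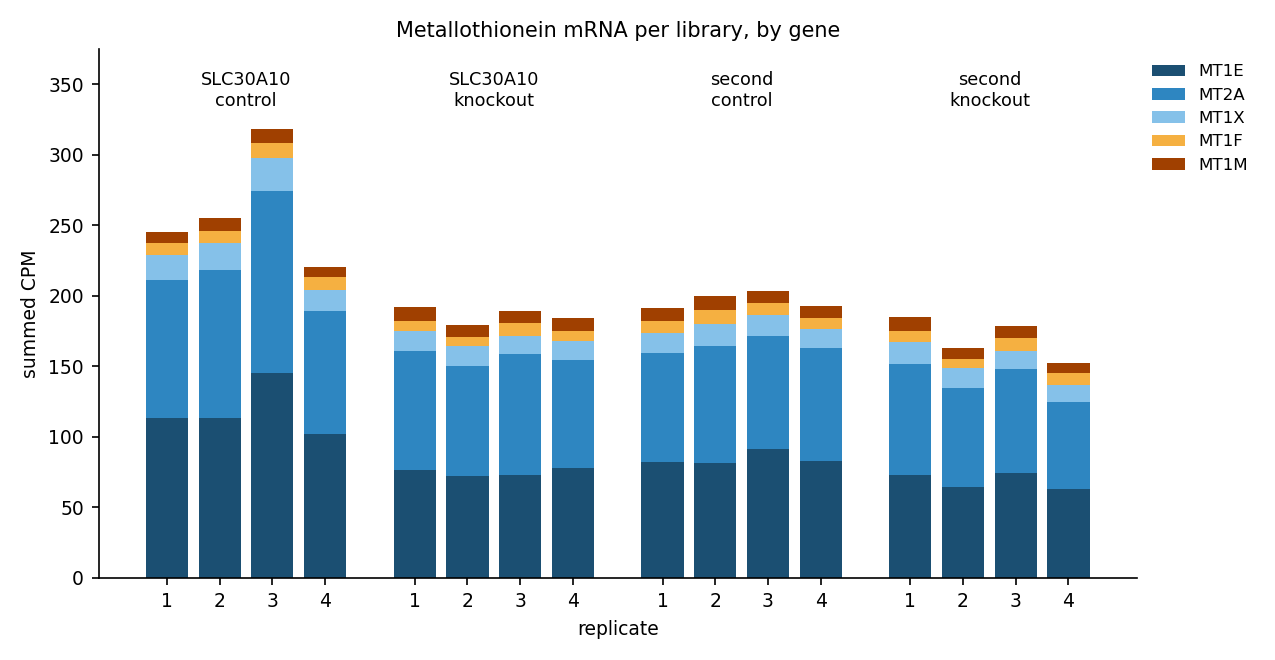
Stacked bars give the summed CPM (vertical axis, from 0) of MT1E, MT2A, MT1X, MT1F and MT1M in each of the 16 libraries, by replicate and group. The SLC30A10 controls reach 319 CPM in replicate 3, and MT1E and MT2A fill most of every bar.

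Other metallothionein genes were looked up from a list of 14, of which 11 were in the table. MT1M was the one tested. It read 8.04, 9.05, 10.4 and 7.5 CPM in the SLC30A10 controls and 9.94, 8.70, 8.22 and 9.03 CPM in the knockout, with overlap, and its log2 fold change was 0.04 ± 0.11 (adjusted p = 0.806, edgeR). Its value in the second knockout was -0.13 ± 0.11 (adjusted p = 0.473). MT1M differs from MT1E at 14 of 186 coding positions. Within 3 mismatches, 5.69% of its windows of 100 bases matched another metallothionein gene or pseudogene. MT3, the brain form, and MT1A, MT1B, MT1L and MT1JP had at most 9 counts in all 16 libraries together.

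Genes beside the cluster were described from a list of 10, of which 8 were tested. In the SLC30A10 knockout 3 were called, all lower, beside 41.4% of all tested genes called and 20.2% called lower, and the median log2 fold change of the 8 was -0.14. They were OGFOD1, an oxygenase acting on a ribosomal protein, at -0.21 ± 0.05, NUP93, a nuclear pore component, at -0.26 ± 0.04, and HERPUD1, an endoplasmic reticulum stress gene, at -0.58 ± 0.22 (edgeR). HERPUD1 was not called without SLC30A10 control replicate 3, at -0.54 (adjusted p = 0.0840, edgeR). BBS2, a cilium gene and the nearest tested neighbour on the MT2A side, was at 0.06 ± 0.06. The second knockout had 2 of 8 called lower (7.03% of all tested genes), NUDT21, an mRNA cleavage factor, at -0.14 ± 0.04 and GNAO1, a G protein subunit, at -0.20 ± 0.06. Between control sets 4 of the 8 were called lower in the SLC30A10 controls and 1 higher, where 39.3% of all tested genes were called. BBS2 was at -0.58 ± 0.06 there and NUP93 at 0.10 ± 0.04, which was not called without SLC30A10 control replicate 3 (adjusted p = 0.0856, edgeR).

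**Figure D5:**
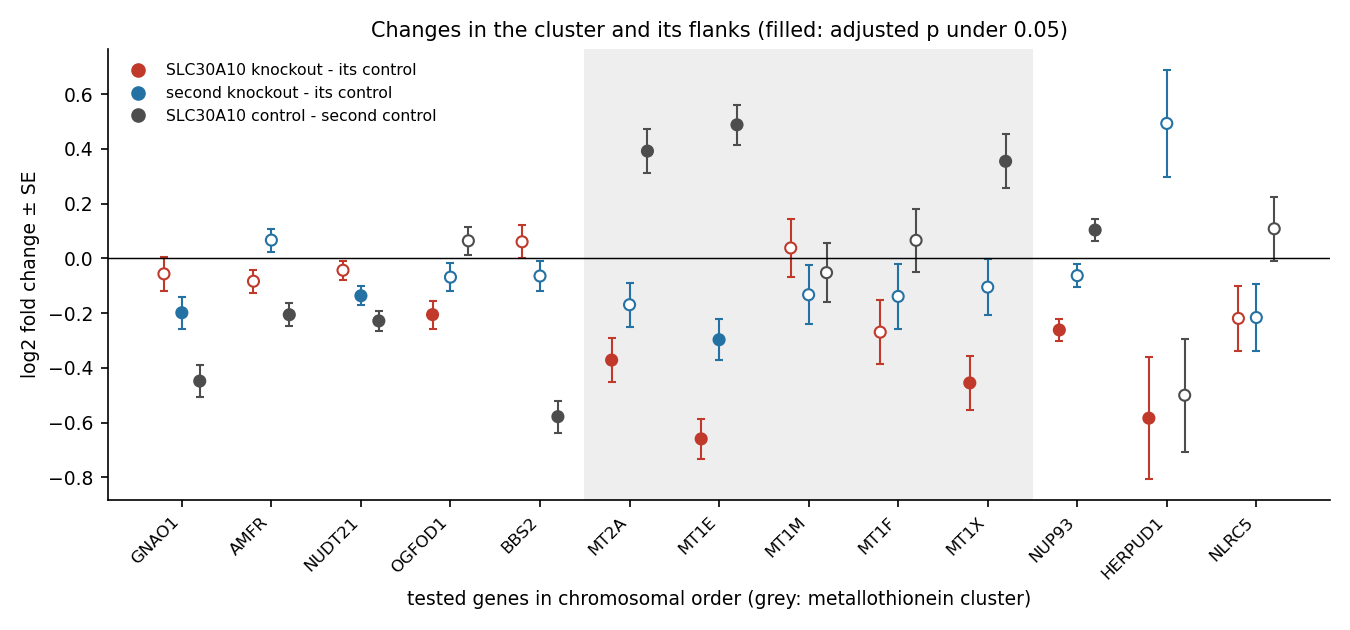
Tested genes of the cluster (grey band) and its flanks are in chromosomal order along the horizontal axis, with log2 fold change ± SE on the vertical axis for 3 contrasts, filled where the adjusted p was under 0.05. Between control sets MT2A and MT1E lie at 0.39 and 0.49 while the neighbouring BBS2 lies at -0.58.

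Known MTF1 targets outside the family were described from a list of 9, all tested. In the SLC30A10 knockout 5 were called, all lower, beside 41.4% of all tested genes called and 20.2% called lower, and the median log2 fold change of the 9 was -0.26. They were CSRP1, a muscle and cytoskeleton LIM protein gene, at -0.56 ± 0.08 (adjusted p = 4.13e-06), C11orf31, which encodes selenoprotein H, at -0.26 ± 0.06 (0.000431), SLC40A1, the iron exporter ferroportin, at -0.44 ± 0.11 (0.00263), SLC30A1 at -0.34 ± 0.10 (0.00535) and GCLC, an enzyme of glutathione synthesis, at -0.15 ± 0.04 (0.00808), all by edgeR. In the second knockout 2 of 9 were called lower (7.03% of all tested genes), CSRP1 at -0.34 ± 0.09 (adjusted p = 0.00665) and SEPW1, selenoprotein W, at -0.24 ± 0.05 (0.000921). SEPW1 was at 0.04 in the SLC30A10 knockout.

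SLC30A1 and CSRP1 were, like MT1E and MT2A, higher in the SLC30A10 controls than in the second control set. SLC30A10 control replicate 3 read 1.29 times the mean of the other SLC30A10 controls in SLC30A1 and 1.285 times in CSRP1. The means of those other controls were 12.9 CPM for SLC30A1 and 28.3 CPM for CSRP1. For CSRP1 the SLC30A10 knockout was at 20.5 CPM and the second control set at 23.2 CPM. Tests of these genes without that library are not given here. SLC30A1 read 12.5, 12.8, 16.6 and 13.3 CPM in SLC30A10 controls 1 to 4, and 11.3, 12.1, 9.87 and 10.3 CPM in the knockout. In the second experiment its means were 9.78 ± 0.871 CPM in controls and 8.62 ± 0.614 CPM in the knockout (SD, n = 4), a log2 fold change of -0.18 ± 0.10 (adjusted p = 0.275, edgeR). The SLC30A10 knockout libraries thus lay below their own controls, and their mean of 10.9 ± 1.02 CPM lay above that of the second control set. Against the second control set SLC30A1 was at 0.15 ± 0.10 in the SLC30A10 knockout (adjusted p = 0.222) and CSRP1 at -0.17 ± 0.08 (0.0982), so neither was called, while C11orf31, SLC40A1 and GCLC were called lower with those controls too, at -0.20, -0.29 and -0.24 (adjusted p 4.87e-05 to 0.0472, edgeR). SLC39A10, a zinc importer known to be repressed by MTF1, was at -0.08 (adjusted p = 0.315) in the SLC30A10 knockout and at -0.02 (0.899) in the other knockout. Without SLC30A10 control replicate 3 it was at -0.14 in the SLC30A10 knockout and passed the threshold (adjusted p = 0.0363, edgeR).

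Zinc transporter genes, which set the zinc that MTF1 senses, came from a list of 24, of which 17 were tested. In the SLC30A10 knockout 4 were called higher and 2 lower, a smaller share than the 41.4% called among all tested genes, with a median log2 fold change of 0.00. SLC39A14, an importer of zinc, iron and manganese, was the most changed at 0.64 ± 0.08 (adjusted p = 2.06e-07, edgeR). The second knockout had 1 of 17 called, against 13.7% of all tested genes, SLC39A6 at -0.13 ± 0.04.

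Coregulators and other factors linked to metallothionein promoters came from a list of 11, of which 10 were tested. In the SLC30A10 knockout 4 were called lower and 1 higher, near the 41.4% called among all tested genes. EP300 and CREBBP, histone acetyltransferases that act with MTF1, were at -0.27 ± 0.04 (adjusted p = 1.81e-05) and -0.28 ± 0.05 (7.15e-05), and CTCF, a chromatin insulator protein, at -0.23 ± 0.04 (9.73e-05) by edgeR. Against the second control set EP300 was still called, at -0.17 (adjusted p = 0.00381, edgeR), and CREBBP was not, at -0.09 (0.151). In the second knockout 0 of 10 were called at an adjusted p under 0.05 by edgeR, against 13.7% of all tested genes, and DESeq2 called 0. An unadjusted p under 0.05 was found for 2 of them, CTCF and KEAP1, with the lowest adjusted p at 0.0784 for CTCF.

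Genes of metal, oxidant and heat stress came from a list of 15. Of 14 tested, 7 were called higher and 2 lower in the SLC30A10 knockout, where 41.4% of all tested genes were called. The higher ones included the chaperone genes HSP90AA1 at 0.34 ± 0.04 (adjusted p = 4.6e-08, edgeR) and DNAJB1 at 0.31 ± 0.07, and the 2 lower ones were NQO1, a quinone reductase, at -1.86 ± 0.10 and FTH1, the ferritin heavy chain, at -0.24 ± 0.04. In the second knockout 2 were called higher and 6 lower, where 13.7% of all tested genes were called. NQO1 was at 0.73 ± 0.09 there and FTL, the ferritin light chain, at -0.29 ± 0.05. NQO1 also differed between the control sets, by 1.16 ± 0.09 (adjusted p = 1.97e-09, edgeR). Its mean was 60.5 CPM in the SLC30A10 controls and 27.1 CPM in the second control set. The second knockout, at 44.9 CPM, lay between these means, and the SLC30A10 knockout, at 16.7 CPM, lay below both. HMOX1, the heme oxygenase gene that cadmium induces, was called in neither knockout.

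Genes with the most similar pattern were ranked by Pearson's r of log2(CPM + 0.5) over the 16 libraries, as a description. The mean profile of MT1E, MT1F, MT1X and MT2A was matched most closely by LHX1-2, a numbered further entry of the LHX1 symbol, at r = 0.924, by CMTM3 at 0.923 and by AGTRAP at 0.920. CMTM3 was at 57.5 ± 7.06 CPM in the SLC30A10 controls, 46.0 ± 1.08 in the SLC30A10 knockout, 49.4 ± 1.98 in the second controls and 45.6 ± 3.34 in the second knockout. For MTF1, close patterns included INTS5 at r = 0.924 and UMPS at 0.920. All these points share their 4 groups and libraries.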

How the data were processed

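Poly-A RNA of 16 libraries was read as paired ends of 100 bases, per the labels' protocols. The authors deposited whole-number counts per gene symbol, and a normalized signal that equals those counts times 1 constant per library, within 5.19e-06 counts. HISAT2, featureCounts, DESeq2 and the builds hg38 and GRCh38 are named in the submitters' processing notes, with no role, version or setting, so use of strand and of reads with several matches is not given in the sources used here.

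Groups came from the genotype labels. The second deleted gene is not reported here. Counts were fitted with edgeR 4.0.16 in R 4.3.3 over all 16 libraries, with a mean per group, TMM scaling (trimmed mean of M-values), and edgeR's filter for low expression (at least 10 counts, total at least 15). Quasi-likelihood F tests were adjusted by Benjamini-Hochberg over 15569 genes, and a gene was called at an adjusted p under 0.05. The fit was first tested on simulated counts. Library totals of 16058856 to 16648151 counts set the precision, and reads without molecular identifiers are not independent molecules, so floors cover counting error only. Levels per kb used the mature length of the principal GENCODE v29 transcript. Promoters came from RefSeq for GRCh38.p14, where MT1E, MT1F and MT1G had no entry in the table used.

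The members and gene lists were chosen with earlier results of these data known, so no list count is independent support. Named genes were all members, tested flanking genes and, per list, the genes of lowest p in each knockout, with others named after their values were seen. Alternatives changed the scaling, the filter, the tool (DESeq2 1.42.0), the libraries fitted, the threshold, a replicate block, pooled controls and each library in turn. Exchanging the control sets was chosen after seeing the data.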

Additional observations from a re-analysis of the deposited data

Results flagged for a closer look

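For 25 of the genes named above, 100 groups of 4 libraries were checked for a library far from the rest, and 10 were flagged, where chance flags about 1 in 20, or 5. For each, the gap to the nearest library is given as a share of the group's range. Among the metallothioneins, MT1E in the second control set had replicate 3 at 91.5 CPM against 81.5 to 82.9 in the others (0.867). MT1F had SLC30A10 control replicate 3 at 10.5 CPM against 8.54 to 8.80 (0.867), and second control replicate 2 at 10.0 CPM against 8.20 to 8.5 (0.835). SLC30A10 control replicate 3 was also the far library for C11orf31 (0.913) and KEAP1 (0.831). The others were BBS2 in SLC30A10 knockout replicate 1 (0.991), CREBBP in SLC30A10 knockout replicate 3 (0.866), CTCF in second control replicate 2 (0.843), EP300 in second control replicate 1 (0.879) and PIAS1 in second control replicate 3 (0.888).

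The effects of the knockouts differed by edgeR's test of the difference for 10 of these 25 genes, where 31.3% of all tested genes were called. Some of them had been named for a low p in a knockout comparison. MT1E was at -0.36 on the log2 scale, the larger fall being in the SLC30A10 knockout, whose own controls read higher than the second control set. NQO1 was at -2.59, having fallen in the SLC30A10 knockout and risen in the second, each against its own controls. Its level was also higher in the SLC30A10 controls than in the second control set, by 1.16 (adjusted p = 1.97e-09, edgeR). CREBBP was at -0.37, EP300 at -0.23, NUP93 at -0.20 and SLC40A1 at -0.49. The positive differences were 0.46 for FTL, 0.31 for HSP90AA1, 0.28 for SEPW1 and 0.17 for PIAS1.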

How the results depend on the processing

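The choice of control libraries moved the counts of called members most. In the SLC30A10 knockout 3 members were called, 1 with both control sets pooled and 0 with the other control set. In the second knockout 1 was called, 2 with pooled controls, 4 with the other control set and 2 with no filter on low counts. For the difference of the effects 1 was called, 2 under library totals alone and 3 with no filter. With own, pooled and other controls, SLC30A10 deletion had 41.4%, 32.1% and 44.3% of all tested genes called. For the further deletion these shares were 13.7%, 19% and 47.8%. No such share is given here for library totals alone, no filter or a library left out. At those settings a change in the members was thus not told apart from a general change in calls. Leaving out each library in turn gave 3 to 4 called in the SLC30A10 knockout, 1 to 1 in the second knockout, 1 to 3 for the difference (3 without SLC30A10 control replicate 4, 2 without second knockout replicate 4) and 4 to 4 between control sets. MT2A turned to 0.020 and MTF1 to 0.086 in the SLC30A10 knockout with the other control set, and MT1F between control sets turned from 0.07 to -0.0023 without SLC30A10 control replicate 3 (-0.0023 to 0.14 over all libraries left out). The cause was not tested. MTF1 between control sets missed a threshold of 0.01 (adjusted p = 0.0102, edgeR). Of the other values for single genes, 188 under other settings and 338 with a library left out kept their direction and side of the threshold. A fit of the difference on the compared libraries alone is the same fit, since it uses all 16.

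Replicate numbers are not stated to pair the libraries. Same-numbered deviations correlated at -0.0699 to 0.0036 in the SLC30A10 experiment, -0.0216 to 0.116 in the second and -0.103 to 0.110 between control sets. No library correlated best with its own number in the SLC30A10 experiment, and replicate 1 alone did in the second. Between control sets replicates 1, 2 and 3 did so and replicate 4 did not. Whether these share a batch was not tested. With a replicate block the called members numbered 3, 1, 1 and 4, as without it, and MT1E was at -0.65 in the SLC30A10 knockout. Depth limits MT1G, with 0 to 2 counts per library. The share of metallothionein reads that match several genes was not measured.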
